A study of Mus musculus with 20 samples.

Results

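The 36 genes described here encode the machinery of autophagy and the lysosome, and they were chosen by name as rows of the deposited table of read counts. They fall into 10 genes of autophagosome initiation, 11 of the conjugation of ubiquitin-like proteins to membranes, 3 cargo receptors, 3 transcription factors of the pathway and 9 lysosomal genes. The table holds 29986 genes, of which 14420 passed a filter on low counts and were tested, and all 36 chosen genes were among those tested. The cells were tenocytes, the fibroblast-like cells of tendon, taken from tail tendons of C57Bl/6 mice, which were adult and wild type. Recombinant IGF1, insulin-like growth factor 1, was given at 100 ng/mL, and cells were taken after 1, 2, 6 or 24 h, while cells at 0 h received no cytokine. Each of the 5 times has 4 sequencing libraries from total RNA, and the labels do not say whether these came from separate cultures or mice, so the p-values measure the spread between libraries, which may be technical. Untreated cells kept for 1 to 24 h are not analysed here, so each comparison with 0 h holds both the growth factor and the time.

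In autophagy, a membrane closes around part of the cytoplasm and then fuses with a lysosome, whose acid hydrolases break the contents down to building blocks. The Ulk kinase complex and the class III phosphatidylinositol 3-kinase complex start the membrane, a conjugation cascade attaches proteins of the LC3 and GABARAP families to it, and cargo receptors link selected contents to those proteins. Growth factors such as IGF1 are known to activate the kinase mTORC1, which phosphorylates Ulk1 and the transcription factor Tfeb in nutrient-rich cells. In tendon, fibroblasts build and turn over a collagen matrix.

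Depth was 13734425 to 22687173 counts per library, and levels are given as CPM, the count of a gene scaled to a common library size, with library sizes corrected by the trimmed mean of M values (TMM). Tendon fibroblast markers were present in every library, with a summed level of 10 genes between 53154 CPM, in 2 h replicate 2, and 83753 CPM. Col1a1 (17545 to 34596 CPM) and Col1a2 (14297 to 27196.5 CPM) gave most of it. Scx had 1484 to 5642.5 CPM, Tnmd 145 to 281 CPM and Mkx 99.3 to 239 CPM. At 2 h, 1 of the 10, Scx, was called higher than at 0 h, and 4 were called lower: Mkx, Col1a1, Col1a2 and Fmod. Markers of macrophages, which are rich in lysosomes, were also present: the summed level of 13 markers was 279.9 to 354 CPM at 0 h, 255 to 560.4 CPM at 1 h, 423 to 1131 CPM at 2 h, 296 to 475 CPM at 6 h and 207 to 372 CPM at 24 h. No macrophage marker was at 0 in any library, and the defining genes Ptprc, Cd68, Adgre1 and Csf1r were all detected. At 2 h, 12 of the 13 markers were called higher than at 0 h, with the largest sums in replicate 2 (1131 CPM) and replicate 1 (614 CPM). Replicate 2 at 2 h also had a summed level of 71.9 CPM for 6 Schwann cell markers, against 5.10 to 6.65 CPM at 0 h. Some endothelial and pericyte genes stood out in the same library, with Cdh5 at 9.51, Pecam1 at 7.75 and Mcam at 24.6 CPM. At 0 h these had at most 0.660 CPM of Cdh5, 0.355 CPM of Pecam1 and 2.03 CPM of Mcam. Not all markers of these cells went that way. The endothelial marker Tek had 20.3 CPM in this library, against 36.4 to 39.7 CPM at 0 h, and was as low in the other libraries of 2 h (19.8 to 22.7 CPM). The pericyte marker Notch3 had 9.91 CPM, against 7.98 to 12.1 CPM at 0 h. The summed level of 6 pericyte and smooth muscle markers in 2 h replicate 2 was 54.5 CPM, of which Mcam gave 24.6 CPM, against 21.5 to 27.6 CPM at 0 h. Without 2 h replicates 1 and 2, 0 of the 13 macrophage markers were called at 2 h. That fit has fewer libraries. Replicates 3 and 4 at 2 h still had macrophage marker sums of 423 and 513 CPM, above all libraries at 0 h. In bulk RNA such as this, fewer cells of a type and less RNA per cell cannot be told apart. Another library, 2 h replicate 4, was the lowest or the highest of its time for 24 of the 36 genes. The other libraries were so for 9 to 23 genes, with 23 in 24 h replicate 3. Calls at 2 h that change without 2 h replicate 4 are given beside them.

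IGF1 treatment went with lower levels of most genes of autophagosome initiation at 2 and 6 h, a deep fall of the LC3 and GABARAP family genes Gabarapl1 and Map1lc3b at 6 h, a short rise of the mitochondrial cargo receptor gene Bnip3 at 6 h, and lower levels of most lysosomal genes at 6 and 24 h. Genes are said to have risen or fallen, or to be called, where edgeR's quasi-likelihood test gave a Benjamini-Hochberg adjusted p under 0.05 over all 14420 genes. Fold changes are on the log2 scale with their standard errors (SE), of treated cells over cells at 0 h.

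At 1 h, 1 of the 36 genes rose and 6 fell, while 10.6% of all genes tested were called (6.75% higher and 3.88% lower). At 2 h, 5 rose and 15 fell, while 37.7% of all genes were called (20.2% higher and 17.5% lower). Without 2 h replicate 2, 3 genes rose at 2 h, and without 2 h replicate 4, 20 fell. A rise at 1 h was called for Tfe3 alone and was lost without 0 h replicate 2 or 1 h replicate 3. At 6 h, 3 rose and 20 fell, while 40.2% of all genes were called (20.6% higher and 19.6% lower). At 24 h, 2 rose and 16 fell, while 26.0% of all genes were called (12.7% higher and 13.2% lower). The share of the 36 genes that fell was thus above the share of all genes that fell at each time, and the share that rose was below that of all genes at 1 h, 2 h, 6 h and 24 h. The median log2 fold change of the 36 genes was -0.05 at 1 h, -0.14 at 2 h, -0.23 by 6 h and still -0.17 by 24 h, against medians of all genes tested within 0.01 of 0. Over the 5 times, 31 of the 36 genes changed at some time by a single test with 4 coefficients, against 63.7% of all genes tested. The genes without a call in that test were Becn1, Atg9a, Gabarap, Atg4b and Atg7. The 4 comparisons share the libraries at 0 h, so that their values are not independent of each other.

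**Figure D1:**
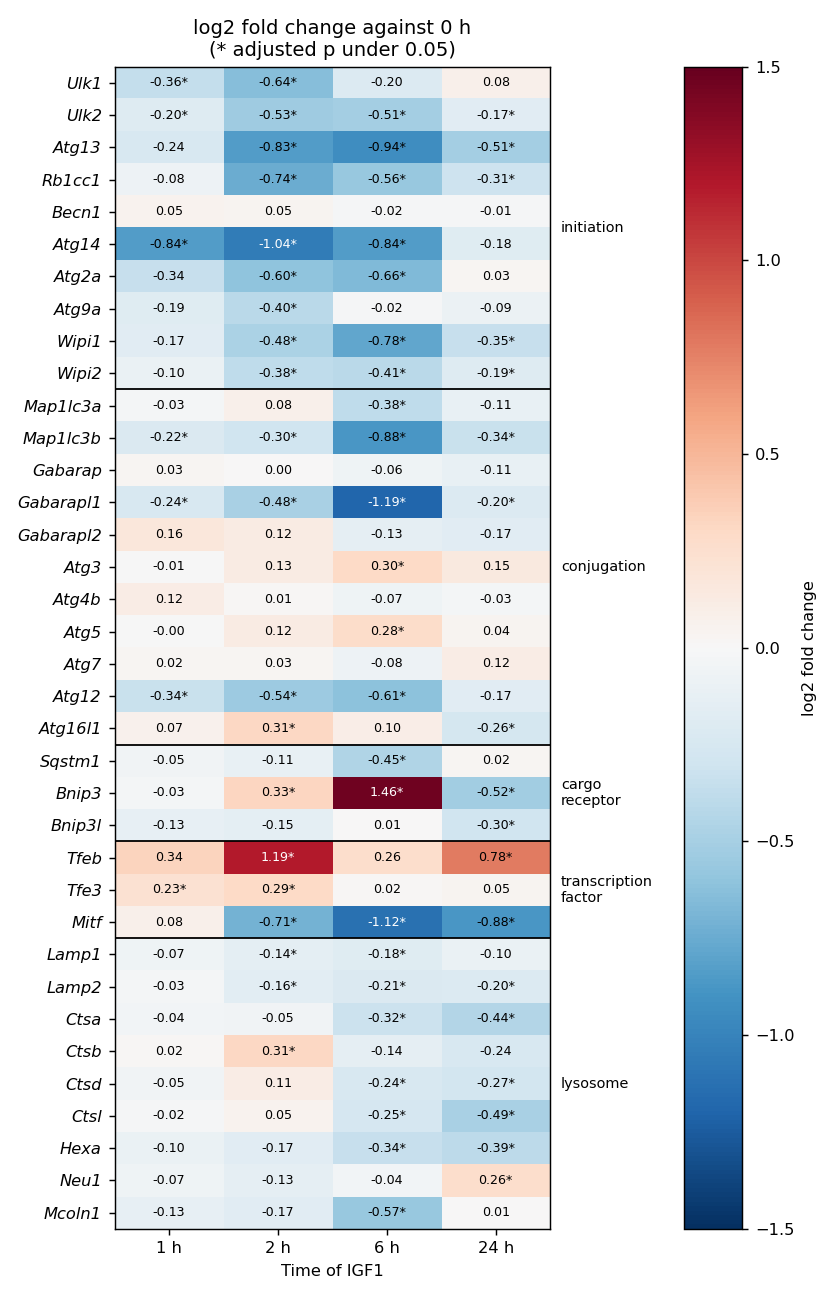
Log2 fold changes of the 36 genes (rows, by role) at 1, 2, 6 and 24 h of IGF1 (columns) against 0 h, with red for higher and blue for lower and an asterisk for an adjusted p under 0.05. Initiation genes are mostly blue at 2 and 6 h, and Bnip3 at 6 h is the deepest red, at 1.46.

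The classes differed in how many of their genes were called and when, as a description with no test between classes. Of all genes tested, 3.88% fell and 6.75% rose at 1 h, and 17.5% fell and 20.2% rose at 2 h. At 6 h 19.6% fell and 20.6% rose, and at 24 h 13.2% fell and 12.7% rose. Of the 10 initiation genes, 3 fell at 1 h, 9 at 2 h, 7 by 6 h and still 5 by 24 h, and 0 rose at these times, with class medians of -0.19, -0.56, -0.54 and -0.17 on the log2 scale. Of the 11 conjugation genes, 3 fell and 0 rose at 1 h, 3 fell and 1 rose at 2 h, 4 fell and 2 rose at 6 h, and 3 fell and 0 rose at 24 h. Their class medians stayed near 0, between -0.11 and 0.03. Of the 9 lysosomal genes, 0 were called at 1 h, 2 fell and 1 rose at 2 h, 7 fell and 0 rose at 6 h, and 5 fell and 1 rose at 24 h. Their class medians were -0.05, -0.13, -0.24 and -0.24. The shares of conjugation and of lysosomal genes that rose were below the share of all genes at each time. The 2 lysosomal genes that fell at 2 h were near the share of all genes that fell then. The 3 cargo receptor genes and the 3 transcription factor genes went in different directions within each class, as described gene by gene further on. Without 2 h replicates 1 and 2, the counts at 2 h were 9 lower of the initiation genes, 3 lower and 2 higher of the conjugation genes, and 0 called of the lysosomal genes. Without 2 h replicate 4 they were 9 lower of the initiation genes, 4 lower and 1 higher of the conjugation genes, 1 lower and 1 higher of the cargo receptor genes, and 5 lower and 1 higher of the lysosomal genes.

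**Figure D2:**
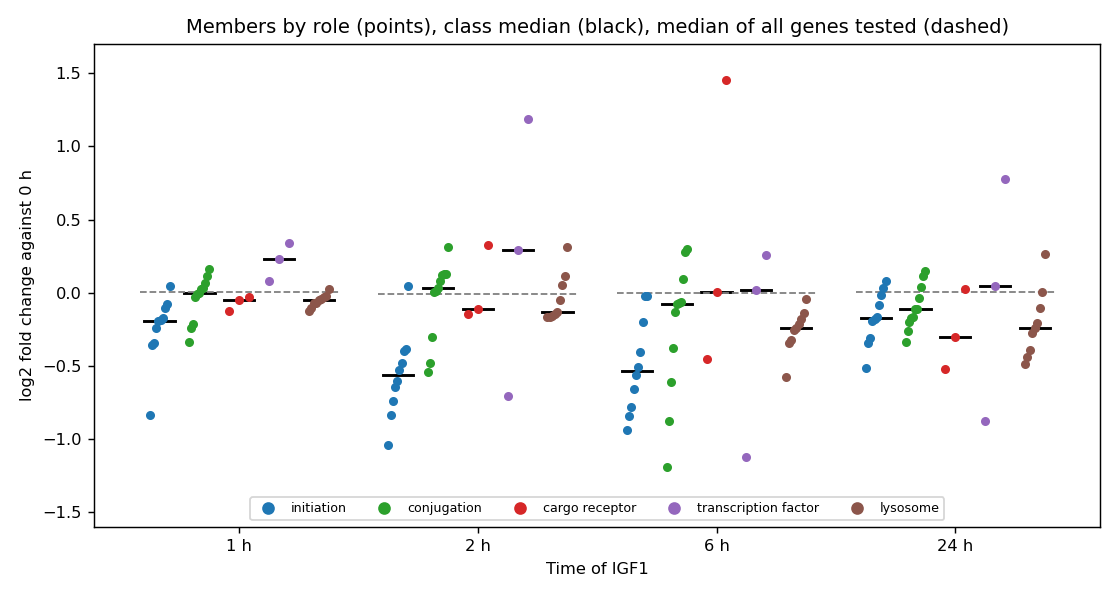
Log2 fold change against 0 h (vertical axis) of each of the 36 genes (points) by role and by time of IGF1 (horizontal axis), with the class median as a black bar and the median of all genes tested as a dashed line. The initiation median lies at -0.56 at 2 h and -0.54 at 6 h, and the conjugation median stays between -0.11 and 0.03.

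Among initiation genes, Atg14, the subunit that directs the class III phosphatidylinositol 3-kinase complex to sites of autophagosome formation, had the largest fall and was already low at 1 h. Atg14 had 17.1, 16.3, 15.2 and 17.0 CPM at 0 h, 9.81, 10.4, 7.06 and 9.62 at 1 h, 9.52, 9.11, 6.10 and 6.94 at 2 h, 10.1, 9.13, 8.23 and 9.08 at 6 h and 14.5, 14.7, 13.5 and 15.4 at 24 h. All 12 libraries from 1 to 6 h lay below all libraries at 0 h, while the libraries at 24 h overlapped those at 0 h. On the log2 scale Atg14 stood at -0.84 ± 0.13 at 1 h (adjusted p = 2.93e-05), -1.04 ± 0.13 at 2 h (adjusted p = 3.01e-07), -0.84 ± 0.13 at 6 h (adjusted p = 5.20e-06) and -0.18 ± 0.12 at 24 h (adjusted p = 0.320). Becn1 encodes the core subunit of the same complex and showed no call: it ranged over 60.9 to 64.9 CPM at 6 h and 60.3 to 65.3 CPM at 0 h, and its log2 fold changes lay between -0.02 and 0.05 at the 4 times. An antisense partner, Cntd1, shares 43.9% of the exonic bases of Becn1, but held only 61 counts over the 20 libraries.

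The genes of the Ulk kinase complex fell together at 2 h, with different courses afterwards. Ulk1 encodes the kinase that opens the pathway. Ulk1 had 68.3, 64.9, 62.1 and 62.6 CPM at 0 h, 55.2, 45.8, 49.9 and 50.4 at 1 h, 39.8, 44.2, 47.1 and 33.9 at 2 h, 54.6, 57.1, 59.6 and 52.9 at 6 h and 59.98, 71.7, 72.8 and 67.6 at 24 h. The libraries at 1 and 2 h all lay below those at 0 h, those at 6 h lay just below, and those at 24 h overlapped them. The log2 fold change of Ulk1 was -0.36 ± 0.083 at 1 h (adjusted p = 0.00403), -0.64 ± 0.083 at 2 h (adjusted p = 7.07e-07), -0.20 ± 0.082 at 6 h (adjusted p = 0.0524) and 0.08 ± 0.082 at 24 h (adjusted p = 0.536). The value at 6 h sits at the threshold. Of the leave-one-out fits, only that without 6 h replicate 3 called it (-0.23, adjusted p = 0.0451). Ulk1 was also called at 6 h with a floor of 1 CPM (adjusted p = 0.0478), DESeq2 (0.04996), a replicate block (0.0482) and only the 8 libraries compared (0.00435). The fit without 2 h replicates 1 and 2 called it as well (adjusted p = 0.0451). RLE scaling and no count filter gave no call. Its paralogue Ulk2 had 51.5 to 56.4 CPM at 2 h and 50.9 to 59.0 CPM at 6 h, against 73.9 to 82.6 CPM at 0 h, with log2 fold changes of -0.53 ± 0.062 and -0.51 ± 0.062 (adjusted p = 1.57e-07 and 2.24e-07). Smaller falls of Ulk2 at 1 h (-0.20 ± 0.062, adjusted p = 0.0384) and 24 h (-0.17 ± 0.062, adjusted p = 0.0492) lost their calls when 0 h replicate 3 was left out (adjusted p = 0.0879 and 0.143) or 0 h replicate 4 (0.091 and 0.148), and also without 1 h replicates 1, 3 or 4 (up to 0.0908) or 24 h replicates 2, 3 or 4 (up to 0.134). With no count filter Ulk2 was not called at either time (adjusted p = 0.111 and 0.147).

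Atg13 encodes the adaptor that binds Ulk1 to its scaffold. Atg13 had 63.1, 56.8, 60.2 and 63.4 CPM at 0 h, 55.9, 52.6, 53.0 and 44.7 at 1 h, 34.6, 31.7, 37.1 and 33.3 at 2 h, 32.3, 30.1, 32.1 and 32.7 at 6 h and 47.6, 49.0, 38.7 and 35.6 at 24 h. Its libraries at 2, 6 and 24 h all lay below those at 0 h. Its log2 fold change was -0.83 ± 0.087 at 2 h (adjusted p = 2.01e-08), -0.94 ± 0.088 at 6 h (adjusted p = 1.97e-09) and -0.51 ± 0.087 at 24 h (adjusted p = 5.03e-05), the deepest of the initiation genes at 6 and at 24 h. At 1 h it was at -0.24 ± 0.086 (adjusted p = 0.0748), and without 1 h replicate 1 at -0.29 (adjusted p = 0.0452). Atg13 was also called at 1 h with no count filter (adjusted p = 0.048), with DESeq2 (0.0455) and with only the 8 libraries compared (0.0105). The fit without 2 h replicates 1 and 2 called it as well (adjusted p = 0.0446). RLE scaling, a floor of 1 CPM and a replicate block gave no call. The scaffold gene Rb1cc1, also known as FIP200, was not called at 1 h (-0.08 ± 0.068, adjusted p = 0.568). It then fell to 74.5, 76.8, 75.1 and 68.9 CPM at 2 h, against 111, 129, 129 and 124 CPM at 0 h. The 2 groups do not overlap, and the log2 fold change was -0.74 ± 0.069 (adjusted p = 2.47e-09). At 6 and 24 h Rb1cc1 was at -0.56 ± 0.069 and -0.31 ± 0.069 (adjusted p = 2.11e-07 and 0.00121).

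The remaining initiation genes act on the growing membrane. Wipi1 and Wipi2 encode proteins that bind the lipid made by the class III kinase, and both fell at 2, 6 and 24 h. Wipi1 had 83.6, 74.2, 76.5 and 85.2 CPM at 6 h, against 135, 143, 133 and 139 CPM at 0 h. No library at 6 h reached those at 0 h, and the log2 fold change was -0.78 ± 0.065 (adjusted p = 1.89e-10), after -0.48 ± 0.064 at 2 h and before -0.35 ± 0.064 at 24 h. At 1 h Wipi1 was at -0.17 ± 0.064 (adjusted p = 0.0833). Of the leave-one-out fits, only that without 1 h replicate 2 called it (-0.23, adjusted p = 0.0312). Wipi1 was also called at 1 h with a floor of 1 CPM (adjusted p = 0.0495), with DESeq2 (0.0353) and with only the 8 libraries compared (0.0200). The fit without 2 h replicates 1 and 2 called it as well (adjusted p = 0.0408). RLE scaling, no count filter and a replicate block gave no call. Wipi2 fell less, by 0.38 at 2 h, 0.41 at 6 h and 0.19 at 24 h on the log2 scale (adjusted p = 1.06e-05, 3.04e-06 and 0.0171), and without 24 h replicate 4 the value at 24 h was -0.15 (adjusted p = 0.0783) and with no count filter -0.20 (adjusted p = 0.0607). Atg2a, which encodes a lipid transfer protein, had 22.1 to 34.3 CPM at 2 h and 24.7 to 32.7 CPM at 6 h, against 39.7 to 52.3 CPM at 0 h. Its log2 fold changes were -0.60 ± 0.12 and -0.66 ± 0.12 (adjusted p = 0.000252 and 7.16e-05), and 0.03 ± 0.11 at 24 h (adjusted p = 0.878). At 1 h it was at -0.34 ± 0.12 (adjusted p = 0.0608) with no overlap between groups, and it was called without 0 h replicate 3 (-0.41, adjusted p = 0.0287) or without 1 h replicate 1 (-0.39, adjusted p = 0.0495). Atg2a was also called at 1 h with no count filter (adjusted p = 0.00194), a floor of 1 CPM (0.0488), DESeq2 (0.0342) and only the 8 libraries compared (0.00298). The fit without 2 h replicates 1 and 2 called it as well (adjusted p = 0.0396). RLE scaling and a replicate block gave no call. Atg9a, the gene of a membrane protein carried on vesicles to the growing autophagosome, had 26.6, 28.8, 31.1 and 16.3 CPM at 2 h, against 34.4, 34.2, 36.5 and 30.7 CPM at 0 h. The groups overlapped, and replicate 4 at 2 h stood far below the other libraries. Its log2 fold change was -0.40 ± 0.13 (adjusted p = 0.0218), -0.24 without 2 h replicate 4 (adjusted p = 0.0351) and -0.36 without 0 h replicate 3 (adjusted p = 0.0548), and with only the 8 libraries compared its adjusted p was 0.0979.

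Among the conjugation genes, the largest changes against 0 h were in Gabarapl1 and Map1lc3b, whose proteins are attached to the membrane. Gabarapl1, a GABARAP family gene on chromosome 6 (129533160 to 129542346 on the plus strand of mm10, protein-coding), had the deepest fall of all 36 genes at 6 h. Gabarapl1 had 155, 152, 146 and 148 CPM at 0 h, 124, 131, 125 and 128 at 1 h, 106, 118, 102 and 104 at 2 h, 61.6, 60.3, 73.8 and 66.8 at 6 h and 125, 136, 138 and 124 at 24 h. Every library from 1 to 24 h lay below every library at 0 h, and the libraries at 6 h lay below all others. Gabarapl1 stood at a log2 fold change of -0.24 ± 0.063 at 1 h (adjusted p = 0.0107), -0.48 ± 0.064 at 2 h (adjusted p = 9.86e-07), -1.19 ± 0.065 at 6 h (adjusted p = 5.81e-14) and -0.20 ± 0.063 at 24 h (adjusted p = 0.0201). The small difference at 24 h lost its call without 0 h replicate 1 (-0.18, adjusted p = 0.0616), 0 h replicate 2 (-0.19, adjusted p = 0.0524), 24 h replicate 1 (-0.18, adjusted p = 0.0712) or 24 h replicate 4 (-0.17, adjusted p = 0.0831). An antisense gene shares 28.3% of the exonic bases of Gabarapl1 and held 99 counts over all libraries.

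Map1lc3b encodes LC3B, the most used marker protein of autophagosomes. Map1lc3b had 189, 187, 179 and 181 CPM at 0 h, 159, 154, 156 and 164 at 1 h, 139, 139.9, 141 and 176 at 2 h, 92.6, 98.2, 105 and 105 at 6 h and 148, 144, 140.4 and 151 at 24 h. The libraries of each treated time lay below those at 0 h, those at 6 h lowest, and 2 h replicate 4 stood above the other 3 libraries of its time. For Map1lc3b the log2 fold change came to -0.22 ± 0.066 at 1 h (adjusted p = 0.0313), -0.30 ± 0.066 at 2 h (adjusted p = 0.000634), -0.88 ± 0.067 at 6 h (adjusted p = 3.96e-11) and -0.34 ± 0.066 at 24 h (adjusted p = 0.000291). Leaving out 0 h replicate 1 or 2, or 1 h replicate 1, 2 or 3, took the call at 1 h away (adjusted p between 0.0528 and 0.0797). Its relative Map1lc3a, the gene of LC3A, fell at 6 h only among the times tested against 0 h, with 50.9, 47.8, 54.9 and 44.4 CPM at 6 h, against 67.1, 60.1, 62.0 and 68.3 CPM at 0 h. These groups do not overlap (-0.38 ± 0.092, adjusted p = 0.00149). At 2 h Map1lc3a was at 0.08 ± 0.091, with 2 h replicates 3 and 4 above and 2 h replicates 1 and 2 below all libraries at 0 h, and it was called higher without replicates 1 and 2 (0.28, adjusted p = 0.0102).

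The other family members were not called against 0 h with all libraries in the fit. Gabarap, the most abundant of the family per length, had 428, 432, 457 and 457 CPM at 6 h, against 447, 459.7, 474 and 472 CPM at 0 h (-0.06 ± 0.073, adjusted p = 0.532). At 2 h it was at 0.00 (adjusted p = 0.977). Replicate 4 of that time had 580.1 CPM while the other libraries had 429.5, 428 and 420.0 CPM, and without that replicate it was at -0.12 (adjusted p = 0.0286). Gabarapl2 was between -0.17 at 24 h and 0.16 at 1 h and was not called at any time. Its level is uncertain, since 3 loci elsewhere in the genome hold near-identical copies of its transcript, each with at most 6 counts in the table.

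Of the enzymes and partner proteins of the conjugation, Atg12 fell, Atg3 and Atg5 rose slightly and Atg16l1 did both in turn. Atg12 encodes the ubiquitin-like protein that is joined to Atg5, and had 35.0, 44.3, 36.4 and 42.5 CPM at 2 h and 33.8, 34.5, 40.5 and 41.6 CPM at 6 h, against 51.7, 59.7, 60.9 and 57.5 CPM at 0 h. The libraries at 2 and 6 h lay below all those at 0 h. Its log2 fold change was -0.34 ± 0.083 at 1 h, -0.54 ± 0.083 at 2 h and -0.61 ± 0.083 at 6 h (adjusted p = 0.00664, 1.00e-05 and 1.20e-06), and -0.17 ± 0.083 at 24 h (adjusted p = 0.126). Atg5 itself rose at 6 h, with 33.3, 38.2, 38.2 and 35.2 CPM, against 28.6, 30.8, 27.9 and 32.2 CPM at 0 h (0.28 ± 0.075, adjusted p = 0.00387). Atg3, the gene of the enzyme that transfers LC3 to its lipid, also rose at 6 h, with 69.5, 72.6, 66.8 and 74.0 CPM, against 57.7, 61.3, 56.3 and 54.9 CPM at 0 h (0.30 ± 0.074, adjusted p = 0.00192). In both genes the libraries at 6 h lay above all those at 0 h. Atg16l1, which places the Atg12 and Atg5 conjugate on the membrane, had 47.8, 49.4, 52.0 and 44.7 CPM at 2 h, against 39.8, 41.2, 36.6 and 38.8 CPM at 0 h (0.31 ± 0.072, adjusted p = 0.00120). At 24 h it stood below all libraries at 0 h, with 31.4, 32.2, 35.5 and 31.2 CPM (-0.26 ± 0.073, adjusted p = 0.00818). Atg7, the activating enzyme, and Atg4b, the protease that trims LC3 before conjugation, were not called against 0 h, with log2 fold changes between -0.08 and 0.12 for Atg7 and between -0.07 and 0.12 for Atg4b.

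The 3 cargo receptor genes followed separate courses. Bnip3 encodes a receptor in the outer mitochondrial membrane that binds LC3 family proteins, and it had the largest change of the 36 genes in either direction. Bnip3 had 37.7, 38.6, 36.6 and 37.4 CPM at 0 h, 36.7, 32.9, 32.6 and 45.3 at 1 h, 50.1, 57.6, 38.2 and 42.5 at 2 h, 100.1, 102, 104 and 106 at 6 h and 25.9, 27.99, 26.8 and 23.8 at 24 h. The libraries at 6 h lay far above all others and those at 24 h lay below all others, while those at 1 and 2 h overlapped those at 0 h. Bnip3 had a log2 fold change of 1.46 ± 0.10 at 6 h (adjusted p = 9.25e-12) and -0.52 ± 0.10 at 24 h (adjusted p = 0.000381). At 2 h it was at 0.33 ± 0.10 (adjusted p = 0.0112), at 0.22 without 2 h replicate 2 (adjusted p = 0.0732) and at 0.10 without 2 h replicates 1 and 2 (adjusted p = 0.485), and with only the 8 libraries compared its adjusted p was 0.0527. A total of 5 loci hold near-identical copies of the Bnip3 transcript, of which those in the table held at most 22 counts each, so the level of Bnip3 is uncertain to the extent that reads were lost to them. Bnip3l, its paralogue with a like role in the removal of mitochondria, was not called at 6 h: it had 100.1, 101, 110.1 and 103 CPM, against 97.1, 106, 103 and 106 CPM at 0 h (0.01 ± 0.074, adjusted p = 0.948). It fell at 24 h to 88.6, 84.8, 78.3 and 82.6 CPM, below all libraries at 0 h (-0.30 ± 0.074, adjusted p = 0.00288). At 2 h it was at -0.15 ± 0.074 (adjusted p = 0.122) and at -0.22 without 2 h replicate 2 (adjusted p = 0.0139).

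Sqstm1 encodes p62, the receptor for ubiquitinated proteins. Sqstm1 had 556, 544, 511 and 539 CPM at 0 h, 525, 516, 516 and 523 at 1 h, 458, 502, 500.3 and 532 at 2 h, 385, 373, 430.1 and 385 at 6 h and 529, 586, 529 and 543 at 24 h. The libraries at 6 h lay below all others, and those at 24 h overlapped those at 0 h. Its log2 fold change was -0.45 ± 0.057 at 6 h (adjusted p = 4.12e-07) and 0.02 ± 0.057 at 24 h (adjusted p = 0.803). At 2 h it was at -0.11 ± 0.057 (adjusted p = 0.137), and at -0.15 without 2 h replicate 4 (adjusted p = 0.0268). Its antisense partner Mrnip shares 17.3% of its exonic bases and held 230 counts over all libraries, beside 182798 of Sqstm1, and whether the counting used strand is not given.

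**Figure D3:**
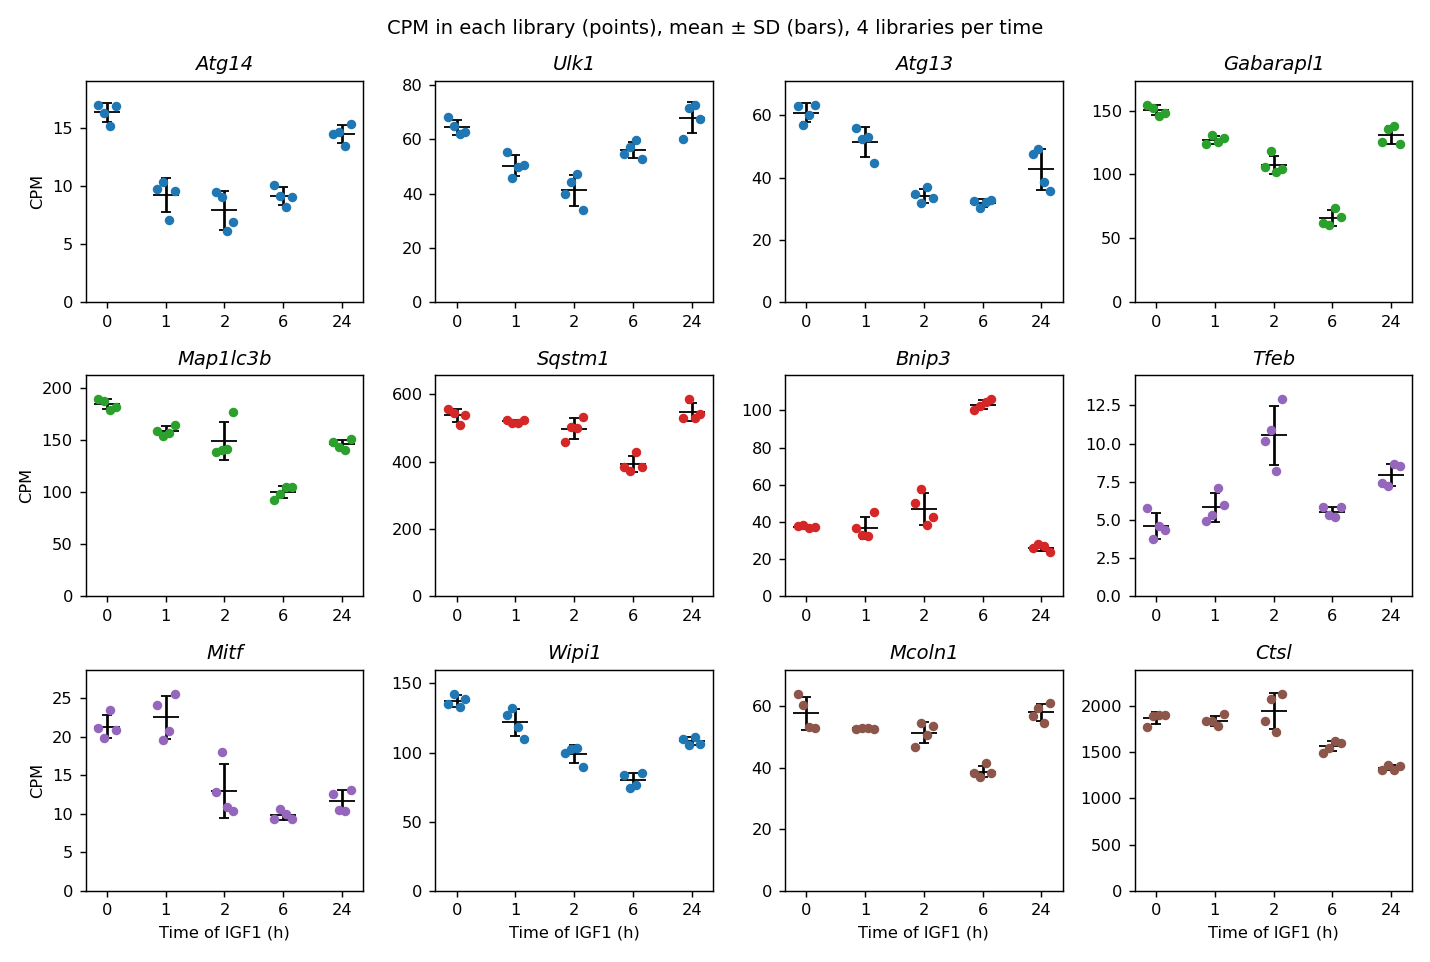
Level in CPM (vertical axes, from 0) of 12 of the 36 genes in each library (points) by hours of IGF1 (horizontal axes), with the mean and SD of the 4 libraries in black. Atg14 is low from 1 to 6 h, Gabarapl1, Map1lc3b, Sqstm1 and Mcoln1 are lowest at 6 h, and Bnip3 is highest at 6 h.

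The 3 transcription factors of the pathway belong to 1 family and bind the same DNA letters, CACGTG within longer sites in promoters of lysosomal genes, and their transcripts moved apart. Tfeb, the best known of them, was scarce. Tfeb had 5.79, 3.76, 4.59 and 4.36 CPM at 0 h, 4.93, 5.35, 7.10 and 5.95 at 1 h, 10.2, 10.9, 8.23 and 12.9 at 2 h, 5.82, 5.29, 5.22 and 5.83 at 6 h and 7.39, 7.24, 8.63 and 8.52 at 24 h. The libraries at 2 and at 24 h lay above all those at 0 h, and those at 1 and 6 h overlapped them. Tfeb had a log2 fold change of 1.19 ± 0.15 at 2 h (adjusted p = 6.07e-07), 0.26 ± 0.16 at 6 h (adjusted p = 0.200) and 0.78 ± 0.16 at 24 h (adjusted p = 0.000356), and at 2 h it was 1.19 also without replicates 1 and 2. Tfe3 was more abundant and rose less, with 67.5, 71.8, 74.4 and 71.5 CPM at 2 h, against 58.8, 56.1, 58.3 and 59.5 CPM at 0 h. These groups do not overlap (0.29 ± 0.060, adjusted p = 0.000320). At 1 h it was at 0.23 ± 0.060 (adjusted p = 0.0103), at 0.20 without 0 h replicate 2 (adjusted p = 0.0563) and at 0.17 without 1 h replicate 3 (adjusted p = 0.0869), and with no count filter its adjusted p at 1 h was 0.111. By 6 h it was back at 0.02. Mitf, named for its role in pigment cells and also expressed in macrophages, fell. Mitf had 21.2, 19.8, 23.4 and 20.9 CPM at 0 h, 24.2, 19.6, 20.8 and 25.6 at 1 h, 12.8, 18.01, 10.8 and 10.4 at 2 h, 9.27, 10.6, 10.003 and 9.34 at 6 h and 12.6, 10.5, 10.3 and 13.04 at 24 h. The libraries at 2, 6 and 24 h lay below all those at 0 h, and 2 h replicate 2, the library with the most macrophage marker RNA, was the highest of them. Mitf stood at a log2 fold change of -0.71 ± 0.13 at 2 h (adjusted p = 0.000101), -1.12 ± 0.13 at 6 h (adjusted p = 1.37e-07) and -0.88 ± 0.13 at 24 h (adjusted p = 1.11e-05), and without 2 h replicates 1 and 2 it was at -1.01 at 2 h.

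The promoters of 29 of the 36 genes were in the table of promoter sequences from RefSeq (build GRCm38.p6), with 35 windows in all, each from 250 bases before to 50 bases after a transcription start. The letters CACGTG, which read the same on both strands, were found in 10 of the 35 windows (28.6%), of 10 different genes, against 7.15% of all 32851 promoter windows. The longer 10-letter form known as the CLEAR element, searched on both strands and holding CACGTG at its centre, was in 0 of the 35 windows and in 0.326% of all windows. The forkhead letters GTAAACA, also searched on both strands, were in 0 of the 35 windows and in 3.65% of all windows. The stretches with these letters are shown for genes of 3 roles, to set the promoters of lysosomal genes that fell at 6 h beside those of Atg3 and Bnip3, which rose at 6 h. Each is read 5′ to 3′ on the strand of the gene, with CACGTG in capitals.
Lamp1: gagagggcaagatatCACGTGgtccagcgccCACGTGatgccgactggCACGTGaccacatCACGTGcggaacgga
Mcoln1: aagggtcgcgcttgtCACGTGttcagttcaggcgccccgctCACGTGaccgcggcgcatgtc
Ctsd: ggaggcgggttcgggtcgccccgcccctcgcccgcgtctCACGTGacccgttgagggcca
Ctsa: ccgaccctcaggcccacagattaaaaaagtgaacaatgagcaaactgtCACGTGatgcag
Atg3: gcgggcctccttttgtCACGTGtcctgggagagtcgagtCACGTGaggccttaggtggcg
Bnip3: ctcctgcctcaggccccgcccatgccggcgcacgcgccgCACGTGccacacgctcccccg
In GRCm38.p6 the stretches lie as follows, from the first to the last: Lamp1 on chr8:13159085-13159160 (plus strand), Mcoln1 on chr8:3500433-3500494 (plus strand), Ctsd on chr7:142387905-142387964 (minus strand), Ctsa on chr2:164833713-164833772 (plus strand), Atg3 on chr16:45158719-45158778 (plus strand) and Bnip3 on chr7:138909594-138909653 (minus strand). The windows of Ctsa and Ctsd each hold 1 more match outside the stretch shown, and those of Atg14, Atg5, Atg7 and Ctsl also hold the letters. Genes with CACGTG in the promoter thus include ones that fell, ones that rose and, with Atg7, 1 that was not called against 0 h. A match is a description of the sequence, and binding of a factor was not measured.

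Lysosomal genes were called mostly at 6 and 24 h, with class medians nearer to 0 than those of the initiation genes at 2 and 6 h. Ctsl encodes cathepsin L, a cysteine protease. Ctsl had 1771, 1891, 1904 and 1907 CPM at 0 h, 1839, 1835, 1779 and 1909.6 at 1 h, 1835, 2071, 1722 and 2135 at 2 h, 1491, 1550.2, 1619 and 1603 at 6 h and 1305, 1367, 1309.8 and 1354 at 24 h. The libraries at 6 h lay below all those at 0 h, and those at 24 h lay lower still. Ctsl had a log2 fold change of -0.25 ± 0.060 at 6 h (adjusted p = 0.00113) and -0.49 ± 0.060 at 24 h (adjusted p = 4.15e-07). Ctsa, the gene of a carboxypeptidase that also protects the sialidase Neu1, had 646, 651, 651 and 645 CPM at 6 h and 594, 615, 585 and 598 CPM at 24 h, against 822, 801, 789 and 829 CPM at 0 h. Neither treated group overlapped 0 h, and the log2 fold changes were -0.32 ± 0.053 and -0.44 ± 0.053 (adjusted p = 1.63e-05 and 2.65e-07). Ctsd, the gene of the aspartic protease cathepsin D, had 1109, 1189, 1128 and 1171 CPM at 24 h, against 1418, 1369, 1349 and 1425 CPM at 0 h. Its log2 fold change was -0.24 ± 0.062 at 6 h and -0.27 ± 0.062 at 24 h (adjusted p = 0.00242 and 0.00144), while at 2 h it was 0.11 ± 0.062 (adjusted p = 0.167), and 0.17 without 2 h replicate 3 (adjusted p = 0.024). Hexa, the gene of the alpha subunit of beta-hexosaminidase, had 446, 478, 442 and 462 CPM at 24 h, against 624, 584, 591 and 598 CPM at 0 h. Its log2 fold changes at 6 and 24 h were -0.34 ± 0.071 and -0.39 ± 0.071 (adjusted p = 0.000333 and 0.000126). At 2 h Hexa was at -0.17 ± 0.071 (adjusted p = 0.0642) with 2 h replicate 4 highest at 652 CPM, and without that replicate it was at -0.28 (adjusted p = 2.51e-05).

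Of the genes of the lysosomal membrane, Lamp1 and Lamp2 fell slightly and Mcoln1 fell further at 6 h. Lamp1 and Lamp2 encode the main glycoproteins that line the inner face of the lysosome. Lamp1 had 1458, 1468, 1564 and 1507 CPM at 6 h, against 1672, 1735, 1683 and 1702 CPM at 0 h, and these groups do not overlap (-0.18 ± 0.053, adjusted p = 0.00798, and 0.0563 with no count filter). Lamp2 had 911, 974, 952 and 926 CPM at 6 h, against 999.6, 1105, 1154 and 1107 CPM at 0 h, again with no overlap (-0.21 ± 0.057, adjusted p = 0.00352), and at 24 h it was at -0.20 ± 0.057 (adjusted p = 0.00870, and 0.0502 without 0 h replicate 3). Their calls at 2 h (-0.14 ± 0.053 and -0.16 ± 0.057, adjusted p = 0.0350 and 0.0319) came with overlapping groups and were lost without 2 h replicates 1 and 2 (-0.07 and -0.15, adjusted p = 0.350 and 0.0867). They were lost as well without 0 h replicate 2, 3 or 4, without 2 h replicate 2 or 3 and, for Lamp1, without 2 h replicate 1 (adjusted p between 0.0539 and 0.116). Mcoln1 encodes a calcium channel of the lysosomal membrane. Mcoln1 had 64.2, 60.3, 53.4 and 53.0 CPM at 0 h, 52.8, 53.0, 53.1 and 52.6 at 1 h, 46.9, 54.6, 50.5 and 53.8 at 2 h, 38.4, 37.0, 41.5 and 38.3 at 6 h and 56.9, 59.4, 54.7 and 61.2 at 24 h. The libraries at 6 h lay below all others, and those at 24 h overlapped those at 0 h. The log2 fold change was -0.57 ± 0.069 at 6 h (adjusted p = 1.75e-07) and 0.01 ± 0.069 at 24 h (adjusted p = 0.958). At 2 h it was at -0.17 ± 0.069 (adjusted p = 0.0564), and it was called when replicate 3 or 4 of 0 h, or replicate 2 or 4 of 2 h, was left out (-0.21 to -0.19, adjusted p between 0.0284 and 0.0401).

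Neu1, the gene of the lysosomal sialidase, was the single lysosomal gene of the 9 that rose at 24 h. It had 70.2, 70.9, 70.3 and 67.8 CPM at 24 h, against 61.2, 56.9, 56.4 and 58.0 CPM at 0 h. All libraries at 24 h lay above those at 0 h (0.26 ± 0.067, adjusted p = 0.00407). At 2 h it was at -0.13 ± 0.067 (adjusted p = 0.124), and at -0.19 without 2 h replicate 4 (adjusted p = 0.0156).

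Ctsb, the gene of the cysteine protease cathepsin B, was highest in the library with the most macrophage marker RNA. Ctsb had 1788, 1745, 1803 and 1831 CPM at 0 h, 1815, 1706, 1821 and 1935 at 1 h, 2109.6, 3081, 1751 and 1959 at 2 h, 1540.5, 1702, 1694 and 1565 at 6 h and 1429.5, 1573, 1485 and 1587 at 24 h. The 2 h libraries spread widely, with replicate 2 highest. The log2 fold change at 2 h was 0.31 ± 0.11 (adjusted p = 0.0295). It was 0.12 without 2 h replicate 2 (adjusted p = 0.143) and 0.05 without 2 h replicates 1 and 2 (adjusted p = 0.627), and leaving out any 1 library of 0 h also took the call away (adjusted p between 0.0543 and 0.076). At 6 and 24 h the libraries of Ctsb lay below all those at 0 h, without a call (-0.14 ± 0.11 and -0.24 ± 0.11, adjusted p = 0.334 and 0.121). In the fit without 2 h replicates 1 and 2, Ctsb was called lower at both times (-0.14 and -0.24, adjusted p = 0.0387 and 0.00114). With only the 8 libraries compared, which include none of 2 h, it was also called lower at both (-0.14 and -0.23, adjusted p = 0.00559 and 1.17e-05). With no count filter it was called at 24 h (-0.25, adjusted p = 0.00355). RLE scaling, a floor of 1 CPM, DESeq2 and a replicate block gave no call at either time. The falls of lysosomal genes at 6 and 24 h came with macrophage marker sums of 296 to 475 CPM at 6 h and 207 to 372 CPM at 24 h, against 279.9 to 354 CPM at 0 h, and with 0 of 13 markers called at either time. The part of these cells in the falls was not tested. Several lysosomal genes share exonic bases with a gene on the other strand: Ctsb shares 12.8% with Fdft1, Ctsa 10.5% with Pltp, Hexa 12.8% with Tmem202 and Lamp1 9.31% with Grtp1. Without knowledge of strand use, reads over these bases cannot be told apart.

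**Figure D4:**
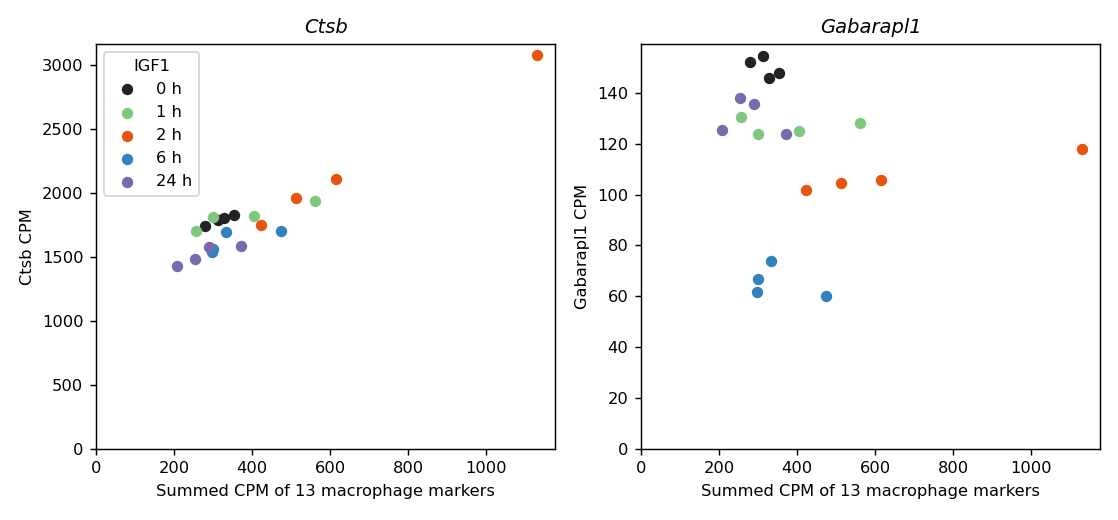
Level of Ctsb and of Gabarapl1 in CPM (vertical axes) against the summed CPM of 13 macrophage markers (horizontal axes) in each of the 20 libraries, coloured by hours of IGF1. Ctsb is highest in 2 h replicate 2, the library with the largest marker sum (1131 CPM), while Gabarapl1 is lowest at 6 h, where the marker sums are 296 to 475 CPM.

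From 6 to 24 h, most initiation genes came back up. Between 24 h and 6 h, 17 of the 36 genes were higher and 5 lower at 24 h, while 17.6% and 18.2% of all genes tested were called higher and lower. Of the 10 initiation genes, 8 were higher at 24 h than at 6 h and 0 were lower, with a median log2 fold change of 0.31. Atg2a (0.69 ± 0.12) and Atg14 (0.66 ± 0.13) had the largest of these values. Gabarapl1 was at 0.99 ± 0.065 and Map1lc3b at 0.54 ± 0.067 between the same times, Mcoln1 at 0.58 ± 0.070 and Sqstm1 at 0.48 ± 0.058. Lower at 24 h than at 6 h were Bnip3 (-1.98 ± 0.10), Atg16l1 (-0.36 ± 0.073), Bnip3l (-0.31 ± 0.074), Atg5 (-0.24 ± 0.076) and Ctsl (-0.23 ± 0.060). The call of Atg5 was lost without 6 h replicate 2 (-0.21, adjusted p = 0.0534), 6 h replicate 3 (-0.21, adjusted p = 0.0519) or 24 h replicate 2 (-0.21, adjusted p = 0.0603). Of the earlier steps, 3 genes were higher and 8 lower at 2 h than at 1 h, while 7.50% and 8.84% of all genes were. Between 6 h and 2 h, 3 genes were higher and 15 lower at 6 h, while 13.6% and 13.7% of all genes were. Single libraries moved several of these step counts. The number higher at 2 h than at 1 h was 5 without 2 h replicate 3, and the number lower was 12 without 2 h replicate 4. The number higher at 6 h than at 2 h was 5 without 2 h replicate 2, and the number lower at 24 h than at 6 h was 7 without 2 h replicate 4. Steps between times share libraries with the comparisons against 0 h and add no independent evidence to them.

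Levels between genes were compared as CPM per kilobase of exonic sequence at 0 h, as a description with no test. Lysosomal genes led this order, with Lamp1 at 635 ± 10.3 and Ctsd at 591 ± 15.7 CPM per kilobase (SD, n = 4). Not all of that class did: Neu1 (15.6 ± 0.570) ranked 17 and Mcoln1 (7.64 ± 0.720) ranked 25 of the 36. Hexa (300.3 ± 8.64), Ctsb (296 ± 5.93) and Ctsl (288 ± 10.02) followed and, by this length, did not differ beyond their spread. Of the 36 genes, 12 share at least 300 bases at 95% identity or more with another annotated gene. Among them, Ctsd (671 identical bases) and Ctsl (977) match genes that have no row among the counts. The levels of Ctsd and Ctsl are uncertain to the extent that reads were lost to them. Gabarap stood at 251 ± 6.69 CPM per kilobase and Sqstm1 at 160.1 ± 5.74, while Gabarapl1 was at 74.6 ± 1.97 and Map1lc3b at 24.5 ± 0.645. Initiation genes lay between 31.2 ± 0.971 for Wipi1 and 3.79 ± 0.192 for Atg14. The 3 transcription factors were near the bottom, with Tfe3 at 6.28 ± 0.159, Mitf at 3.44 ± 0.247 and Tfeb last of the 36 at 0.816 ± 0.151. With the length of the longest transcript in place of all exonic bases, some of these levels move by over 1.5 times, among them Lamp2 (303 in place of 114), Map1lc3b (44.5 in place of 24.5), Mcoln1 (19.98 in place of 7.64) and Tfeb (1.97 in place of 0.816), with Lamp1 still first and Tfeb last. The order in between changed as well, with Ctsb (378) and Gabarap (343) above Ctsl (303) and Hexa (300.3) by that length.

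**Figure D5:**
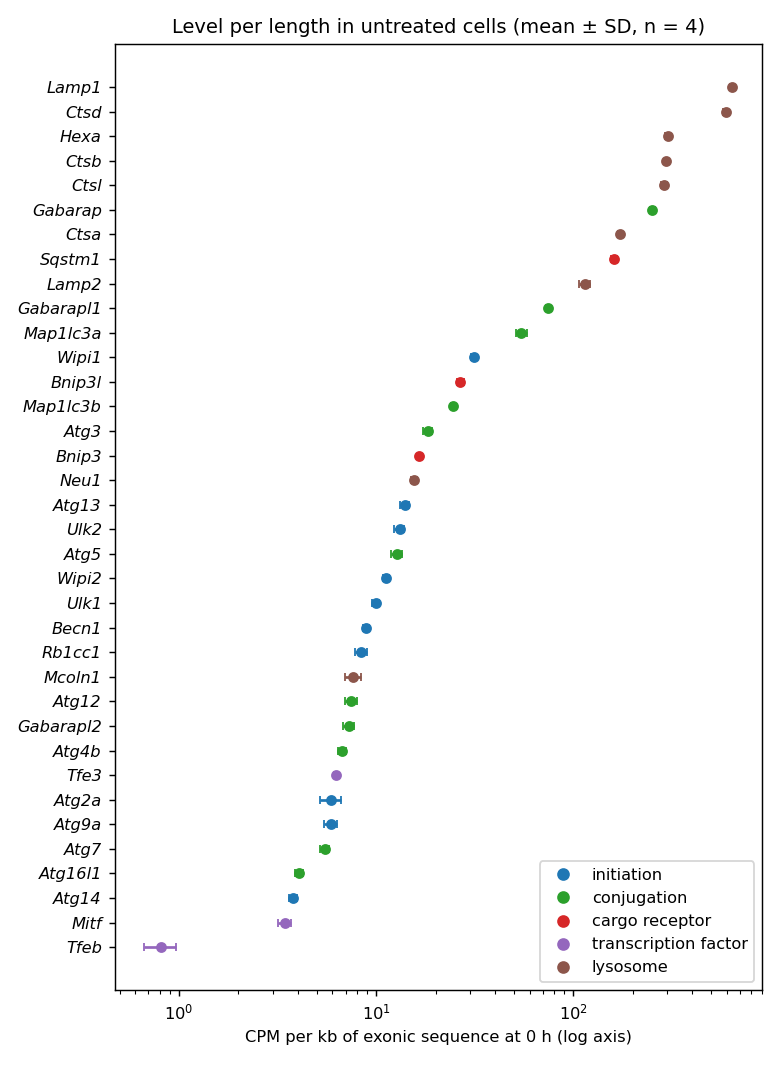
Level of each of the 36 genes at 0 h in CPM per kilobase of exonic sequence (horizontal axis, logarithmic; mean ± SD of 4 libraries), ordered from highest to lowest and coloured by role. Lamp1 is highest at 635, and Tfeb is lowest at 0.816.

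Other genes of the same pathway, from lists chosen by their known function, were looked at beside the 36. For comparison, 3.88% of all genes tested fell and 6.75% rose at 1 h, 17.5% fell and 20.2% rose at 2 h, 19.6% fell and 20.6% rose at 6 h, and 13.2% fell and 12.7% rose at 24 h. Of 29 further autophagy genes, 4 fell and 2 rose at 1 h, 13 fell and 5 rose at 2 h, 13 fell and 5 rose at 6 h, and 2 fell and 1 rose at 24 h, both below the shares of all genes at that time. Pik3c3, the catalytic subunit of the class III kinase to which Atg14 and Becn1 belong, had 16.9, 18.4, 18.1 and 16.7 CPM at 2 h, against 31.6, 28.3, 31.5 and 35.2 CPM at 0 h. These groups do not overlap (-0.85 ± 0.083, adjusted p = 5.70e-09). Zfyve1, a marker of the membrane from which autophagosomes grow, was at -1.34 ± 0.079 at 2 h (adjusted p = 3.52e-13). Wdr45, a relative of the Wipi genes, was at -1.80 ± 0.13 at 6 h (adjusted p = 1.48e-11). Vmp1, an endoplasmic reticulum protein needed for autophagosome formation, was the further autophagy gene with the deepest called fall at 1 h (-0.56 ± 0.065, adjusted p = 4.09e-07). Ykt6, a gene of membrane fusion, rose at 1, 2, 6 and 24 h, with 0.51 ± 0.053 at 6 h (adjusted p = 1.36e-08). Other genes of this list that fell most were Atg101, a partner of Atg13, at -0.52 ± 0.11 at 1 h, and Epg5, a tether of autophagosomes to lysosomes, at -0.81 ± 0.17 at 2 h. Those that rose most were Tmem41b, a lipid scramblase of the endoplasmic reticulum, at 0.32 ± 0.079 at 1 h and 0.37 ± 0.079 at 2 h, Atg4d, a relative of Atg4b, at 0.43 ± 0.12 at 2 h, and at 6 h Atg2b, the paralogue of Atg2a, at 0.46 ± 0.11 and Tecpr2 at 0.41 ± 0.15. Atg4d shares 19.3% of its exonic bases with Kri1 on the other strand.

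Of 16 further cargo receptor genes, 0 were called at 1 h, 6 fell and 1 rose at 2 h, 7 fell and 2 rose at 6 h, and 2 fell and 1 rose at 24 h. The 3 called at 24 h are a smaller share than the 26.0% of all genes called. The deepest was Calcoco1, a receptor for the endoplasmic reticulum. It had 18.8, 20.4, 20.6 and 19.0 CPM at 6 h, against 116.7, 106.9, 102.7 and 101.4 CPM at 0 h. No library at 6 h came near those at 0 h, and the log2 fold change was -2.44 ± 0.060 (adjusted p = 2.59e-21). Nbr1, a relative of Sqstm1, was at -0.90 ± 0.071 at 6 h (adjusted p = 7.67e-11), and Retreg1, a receptor of the endoplasmic reticulum also known as Fam134b, was at -0.60 ± 0.065 (adjusted p = 2.60e-08). The risers of this list were Phb2, a receptor of the inner mitochondrial membrane, at 0.32 ± 0.076 at 2 h and 0.36 ± 0.076 at 6 h, and Stbd1, which binds glycogen, at 0.32 ± 0.086 at 6 h and 0.24 ± 0.086 at 24 h.

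Of 39 further lysosomal hydrolases and cofactors tested, 0 were called at 1 h, 18 fell and 4 rose at 2 h, 27 fell and 2 rose at 6 h, and 18 fell and 2 rose at 24 h. Their medians at these times were -0.06, -0.12, -0.22 and -0.17. At 2 h these counts were 7 lower and 1 higher without 2 h replicates 1 and 2. Ctsf, the gene of cathepsin F, was at -0.68 ± 0.078 at 24 h (adjusted p = 1.07e-07). Also lower were Ids at -0.53 ± 0.072 at 2 h and -0.45 ± 0.072 at 24 h, Idua at -0.39 ± 0.089 at 2 h and -0.63 ± 0.090 at 6 h, Galc at -0.38 ± 0.11 at 2 h, Lipa at -0.53 ± 0.11 at 6 h and Gaa at -0.47 ± 0.075 at 24 h. Ppt2, a thioesterase, rose at 2, 6 and 24 h (0.30 ± 0.12, 0.35 ± 0.12 and 0.35 ± 0.12), Pla2g15 at 6 h (0.35 ± 0.077) and Gusb at 24 h (0.32 ± 0.058). Ctss, the gene of cathepsin S, which macrophages express, was the largest riser at 2 h (2.08 ± 0.50, adjusted p = 0.00396), with 110.3, 256, 38.2 and 59.3 CPM in replicates 1 to 4, against 23.2, 22.4, 36.2 and 28.3 CPM at 0 h. The level of Ctss was highest in the 2 libraries with the most macrophage marker RNA, and without them it was at 0.82 (adjusted p = 0.142). Ctsc, the gene of cathepsin C, was at 1.22 ± 0.37 at 2 h, and without these libraries at 0.51 (adjusted p = 0.160). Of 28 further lysosomal membrane genes, 3 fell and 0 rose at 1 h, 10 fell and 2 rose at 2 h, 11 fell and 1 rose at 6 h, and 0 fell and 4 rose at 24 h. Flcn, which acts on the nutrient-sensing proteins at the lysosome, was the deepest of these at 1 h, with 35.5, 35.4, 40.3 and 34.2 CPM at 1 h, against 66.7, 56.3, 64.8 and 59.5 CPM at 0 h. These groups do not overlap (-0.76 ± 0.079, adjusted p = 5.08e-08), and at 24 h Flcn was at 0.27 ± 0.077 (adjusted p = 0.0108). Ctns, the cystine transporter, was at -0.98 ± 0.071 at 2 h (adjusted p = 1.93e-11), while Tpcn2, a channel of the lysosomal membrane, rose at 2, 6 and 24 h (0.67 ± 0.090, 0.68 ± 0.090 and 0.32 ± 0.091). Slc38a9, an amino acid sensor of the lysosome, was at -0.59 ± 0.098 at 2 h and -0.68 ± 0.099 at 6 h, Rragd, a nutrient-sensing GTPase, at -0.69 ± 0.12 at 6 h and the channel gene Tmem175 at -0.64 ± 0.089, with 35.3% of its exonic bases shared with Dgkq on the other strand. Laptm4b rose at 24 h (0.37 ± 0.063). Of 17 subunits and accessory proteins of the proton pump that acidifies lysosomes, 0 were called at 1 and at 24 h, and 1 fell and 2 rose at 2 h, and 2 fell and 2 rose at 6 h. These are smaller shares than the 37.7% and 40.2% of all genes called at 2 and 6 h. Among them Atp6v0d2, a form found in macrophages and osteoclasts, was at 2.49 ± 0.60 at 2 h (adjusted p = 0.00373), with 44.0, 96.1, 11.9 and 13.8 CPM in replicates 1 to 4, against 6.67, 6.55, 7.59 and 8.71 CPM at 0 h. Without replicates 1 and 2 it was at 0.80 (adjusted p = 0.211). The other called subunits were Atp6v0a1 at 0.29 ± 0.083 and Atp6ap1 at -0.17 ± 0.054 at 2 h, and Atp6v0a2 at 0.43 ± 0.073, Atp6v1h at 0.19 ± 0.072, Atp6v1f at -0.23 ± 0.084 and Atp6v1a at -0.19 ± 0.066 at 6 h.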

How the data were processed

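RNA of 20 libraries, 4 at each of 5 times, was sequenced after extraction with a miRNeasy Micro kit, per the labels' protocols. The authors deposited 1 table of whole-number read counts per gene, not normalized. FastQC, STAR, edgeR and the build mm10 are named in the submitters' processing notes. For the counting tool, its annotation and its use of strand, nothing is given in these sources. Library sizes were scaled by TMM and CPM computed on them. Genes kept by edgeR's filter on low counts (14420 of 29986, with 99.91% of counts) were fitted with edgeR 4.0.16 (R 4.3.3, limma 3.58.1) by the quasi-likelihood test, 2-sided, with all 20 libraries in 1 fit and time as the only factor. Benjamini-Hochberg adjustment ran over all genes tested, at 0.05. The procedure was tested on simulated data. Replicate numbers come from the labels and did not pair the libraries. Depth was at least 13734425 counts in each library.

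Alternatives were another scaling (RLE), no filter, a floor of 1 CPM reached in 4 or more libraries, a fit with DESeq2 1.42.0, a replicate block, only the 8 libraries compared, each replicate left out, 2 h replicates 1 and 2 left out, and the longest transcript as length. The 36 genes and all gene lists were chosen with earlier results of these data known. All 36 are described, and of the further lists, genes with the largest called changes were named, up to 3 in each direction in each list and time, at a mean of at least 5 CPM. Some genes listed among the hydrolases are not reported here.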

Additional observations from a re-analysis of the deposited data

Results flagged for a closer look

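In 8 of the 185 sets of 4 libraries examined, 1 library stood apart from the other 3 of its time, by a gap above Dixon's 95% critical value. Chance flags about 1 in 20 such sets. In 2 h replicate 4, Map1lc3b had 176 CPM, while the other libraries of that time had 139 to 141 CPM, and Gabarap had 580.1 CPM, while the others had 420.0 to 429.5 CPM. Ulk2 had 71.6 CPM in 1 h replicate 2, while the others had 67.5 to 67.6 CPM. Lamp1 had 1649 CPM in the same library, while the others had 1609 to 1612 CPM. Lamp2 had 1147 CPM in 1 h replicate 4, while the others had 1034 to 1053 CPM. Becn1 had 64.9 CPM in 6 h replicate 4, while the others had 60.9 to 61.5 CPM. Atg4b had 48.8 CPM in 24 h replicate 1, while the others had 55.6 to 56.7 CPM. Ctsl had 1771 CPM in 0 h replicate 1, while the others had 1891 to 1907 CPM.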

How the results depend on the processing

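Of 68 calls of the 36 genes against 0 h, 55 kept their direction and stayed under an adjusted p of 0.05 under every alternative run. The number of genes higher at 1 h was 0 without a filter and 0 to 1 when each replicate was left out, against 1. The number higher at 2 h was 3 with only the 8 libraries compared and 3 to 6 when each replicate was left out, against 5. Between 2 h and 1 h, 5 genes were higher with DESeq2 and 1 with only the 8 libraries compared, and 2 to 5 when each replicate was left out, against 3, while 4 were lower with only the 8 libraries compared, against 8. That fit, which has fewer samples, called 776 of all genes between 2 h and 1 h, against 2357, and 2569 between 6 h and 2 h, against 3944. Between 6 h and 2 h, 5 of the 36 genes were higher without 2 h replicates 1 and 2 and 2 to 5 when each replicate was left out, against 3. Gabarap at 2 h had a log2 fold change of 0.00, which was -0.12 without 2 h replicate 4 and 0.0503 without 2 h replicate 3. Beyond the smaller number of samples, the cause of these changes was not tested.

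Treated libraries did not deviate together with the same-numbered library at 0 h: 0 of 16 such correlations were over 0.1 (-0.0631 to 0.0813). Among the libraries of all other times, 3 of 20 libraries correlated best with 1 of their own number. With the replicate block, 5 of the 36 genes were lower at 1 h, 15 at 2 h, 21 by 6 h and 15 by 24 h, and 32 changed at some time. Ulk2 was not called at 1 and 24 h in that fit (adjusted p = 0.0553 and 0.0653). The block called 1518 of all genes at 1 h, 5361 at 2 h, 5752 by 6 h and 3677 by 24 h. Of the 36 genes, Tfeb, the scarcest, had the widest errors against 0 h (SE 0.15 to 0.16). Among the further genes, Ctss and Atp6v0d2 were less scarce at 2 h and had wider errors there (0.50 and 0.60). Counts do not tell a change in the level of protein or in the flow through autophagy, which were not measured.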
